A study of Homo sapiens with 10 samples.

Results

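The nuclear-encoded respiratory chain genes were taken from the GENCODE 44 annotation by symbol: protein-coding genes starting with NDUFA, NDUFB, NDUFC, NDUFS, NDUFV, SDHA to SDHD, UQCR, COX4I to COX8A, ATP5F1, ATP5M or ATP5P. This gave 100 members among 20033 protein-coding genes. Read as prefixes, the symbols brought in 12 assembly factors (NDUFAF and SDHAF), which build complex I and complex II but are not part of them and are given apart, and 88 genes named for subunits. Those 88 include 2 readthrough genes, ATP5MF-PTCD1 and NDUFC2-KCTD14, which join a member to its neighbour, and the like genes UQCRHL and ATP5MGL.

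The respiratory chain sits in the inner mitochondrial membrane. Complex I (NADH dehydrogenase) and complex II (succinate dehydrogenase) pass electrons through complex III (cytochrome bc1) to complex IV (cytochrome c oxidase), and complex V (ATP synthase) uses the resulting proton gradient to make ATP. A few subunits are encoded by mitochondrial DNA, and all others are made from nuclear mRNAs that end, like most mRNAs, at a cleavage site with a poly(A) tail. The site is chosen largely by a hexamer, AATAAA or a variant of it in DNA letters, shortly upstream of the cut.

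The study asked where poly(A) sites are used when the transcription kinases CDK12 or CDK13 are depleted in IMR-32, a human neuroblastoma cell line. Poly(A) 3′-seq, in which each read starts at the cleavage site, was made from 10 libraries of cells with lentiviral shRNAs and puromycin selection: 4 for CDK12 (sh22 and sh98), 4 for CDK13 (sh701 and sh704) and 2 for the shGFP control, with 2 libraries for each shRNA. Before peaks were called, the authors downsampled the libraries, processed in different batches, to the smallest one and merged all of them. The deposited list therefore holds 178837 peaks of the pool, without strand and without a value for any library, so knockdown and control cells cannot be told apart here, neither the spread between replicates nor the depth of a library is known, and every value below describes the pool, with no test.

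Of all peaks, 489 had their summit, the highest point of the peak, in a member or up to 600 bp past its 3′ end. Height is given as the pileup at the summit, the number of distinct read positions (1 read per position and strand) within the 100 bp read extension. It levels off for abundant RNAs and is not a measure of how much RNA there is. The median pileup over all peaks of the list was 9. The label of the cells was checked first. All 12 neuroblastoma marker genes examined had a peak at their end, with pileups of 16 to 114 (PHOX2A the highest, MYCN at 73). Of 8 markers of blood, liver, epithelium, endothelium, fibroblast and muscle cells, 6 had no peak, ALB had a pileup of 3 and EPCAM had a pileup of 13.

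Sequences at the ends of members are shown first, because the position of the hexamer is what ties a peak to a cleavage site. Each is the 30 bases up to the 3′ edge of a narrow peak (at most 150 bp) that lies within 25 bp of an annotated transcript end, read from hg38 in the direction of the gene, with the hexamer in capitals. Since a read starts at the cut and was extended upstream, the 3′ edge marks the most downstream cut of the peak. These 7 carried the canonical AATAAA: the complex IV subunits COX6B1 (chr19:35658755-35658784) and COX7B (chrX:77905359-77905388), the complex V subunit ATP5MJ (chr14:103912510-103912539, minus strand), the accessory complex I subunits NDUFB1 (chr14:92116120-92116149, minus strand) and NDUFA13 (chr19:19528169-19528198), and the core complex I subunits NDUFS3 (chr11:47584536-47584565) and NDUFS8 (chr11:68036616-68036645).
COX6B1: tgctAATAAAaactcattggaaaagtgaga
COX7B: agaAATAAAgtacatttgaaaccttcattg
ATP5MJ: gAATAAAtggatctgtgagatgcactgcta
NDUFB1: agaAATAAAaacatgaagaatctgaaatgt
NDUFA13: tgggacggAATAAAtgctctgcagacctgg
NDUFS3: gtgtaAATAAAttcctacttagacttacca
NDUFS8: tgctgcccAATAAAaccactccgaccccac

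A hexamer that begins over 30 bp before the edge, as at SDHB (35 bp) and UQCRC2 (40 bp), falls outside the bases shown. In the 7 ends picked for display the hexamer began 22 to 29 bp before the edge. Members with a variant in the same place follow: ATTAAA in ATP5F1D (chr19:1244797-1244826), the delta subunit of ATP synthase, and in NDUFA12 (chr12:94971326-94971355, minus strand), an accessory complex I subunit, and AGTAAA in COX4I2 (chr20:31644980-31645009), the lung-enriched form of cytochrome c oxidase subunit 4.
ATP5F1D: cccgccccATTAAAgacccggaagcctgac
NDUFA12: acaATTAAAattgtgtgactaaacaatgtc
COX4I2: taaccccAGTAAAgctccaaaaaaaaattt

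The assembly factor SDHAF2 (chr11:61446728-61446757) is shown as an end with a narrow, strong peak, with a pileup of 40, and none of the 12 hexamers searched in the 40 bp before the edge.
SDHAF2: aggaaatttacaatttcccagccctcacaa

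A peak was called terminal when its summit lay between 200 bp upstream and 600 bp downstream of any annotated transcript end of the gene. By this measure 95 of 100 members had a terminal peak (95% Wilson interval 88.8% to 97.9%, which covers counting error only), beside 13666 of 19933 other protein-coding genes (68.6%). The strongest terminal peak of a member had a median pileup of 35 and a range of 15 to 77. In other genes with a terminal peak the median was 23, the 25th to 75th percentiles ran from 15 to 32, and 21.2% reached 35 or more. Of the 95 members, 81 lay above the median of the other genes and 55 above their 75th percentile. With terminal peaks of at most 150 bp alone, a limit set after seeing the data, the medians were 23 in 55 members and 17 in other genes.

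**Figure D1:**
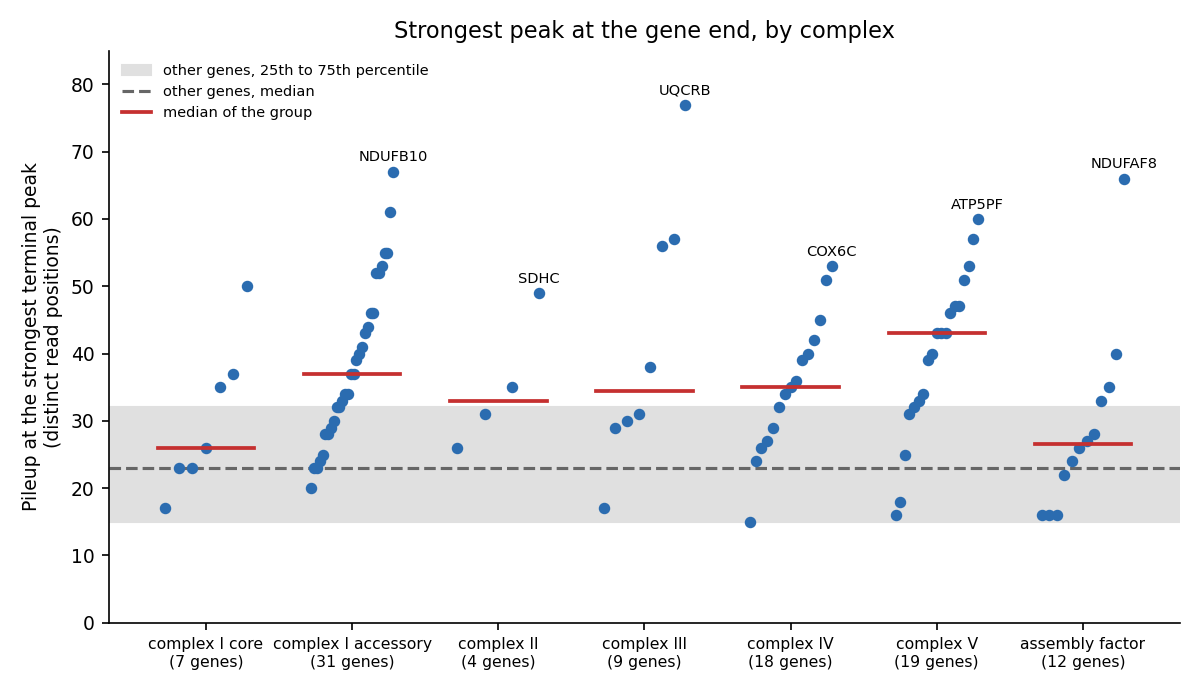
Each point is a gene with a terminal peak, and the vertical axis is the pileup of its strongest terminal peak in distinct read positions. Red bars are group medians, and the grey band and dashed line give the 25th to 75th percentiles and the median of other protein-coding genes. Medians run from 26 in the core of complex I to 43 in complex V, and no member lies below 15.

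In complex I, the 7 core subunits, which carry the flavin and iron-sulfur centres, all had a terminal peak, with a median pileup of 26. NDUFS1, the subunit with the largest number of iron-sulfur clusters, had 37, above 81.6% of other genes, and NDUFV2 had 35. NDUFV1, which binds NADH and flavin, had 26, NDUFS3 and NDUFS7 each had 23, and NDUFS8 was lowest at 17. A gene on the other strand, from which reads cannot be separated in a list without strand, covered the summit in NDUFV2 (NDUFV2-AS1) and in NDUFS7.

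Of the 31 accessory complex I genes, 30 had a terminal peak, with a median of 37. The highest pileup was in NDUFB10, at 67, but that peak was 581 bp wide, its edge was 451 bp past the annotated end and its summit lay in RPS2 on the other strand, which encodes a ribosomal protein. NDUFC1 came next at 61, and NDUFA7 and NDUFAB1, the acyl carrier protein, each had 55. The accessory gene without a terminal peak was NDUFC2-KCTD14, whose 10 peaks include those of NDUFC2 itself. NDUFC2 had 2 end peaks, with pileups of 40 and 22, at 294 and 1686 bp past its stop codon.

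The 4 complex II genes had terminal pileups of 49 in SDHC, 35 in SDHB, 31 in SDHA and 26 in SDHD. SDHA holds the flavin and SDHB the iron-sulfur clusters, and SDHC and SDHD anchor the enzyme in the membrane. SDHA has near-identical pseudogene copies on the genome, so its value is less certain than those of the other 3. All 4 genes had intronic peaks, between 5 in SDHA and SDHD and 7 in SDHC.

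Complex III had both the strongest peak of the whole group and a member with no terminal peak. UQCRB, a small subunit near the quinone site, had a pileup of 77, above 99.7% of other genes, in a peak 677 bp wide. UQCRQ had 57 and UQCR11 had 56. The core proteins UQCRC1 and UQCRC2 had 30 and 38, and UQCRHL was lowest at 17 beside 29 for UQCRH. UQCRFS1, the Rieske iron-sulfur protein, had no terminal peak, although its single peak past the stop codon had a pileup of 61 and is described with the internal sites.

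Complex IV contained the 3 members with no peak anywhere in the gene: COX6A2 and COX7A1, the heart and muscle forms of their subunits, and COX7B2, a testis form. Their paralogs all had an end peak. COX6A1 had a pileup of 45, COX7A2 had 51, COX7A2L, which acts in supercomplex assembly, had 35, and COX7B had 26. In the pairs with both forms present, COX4I1 had 27 and COX4I2 had 15, and COX6B1 had 29 and COX6B2 had 24. COX8A had 34. NDUFA4, now counted with complex IV, had 32 and NDUFA4L2 had 36, although the edge of the NDUFA4L2 peak was 414 bp past the annotated end and its summit lay in SHMT2 on the other strand. COX6C was highest at 53, and the median of the 15 genes with a terminal peak was 35.

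All 19 complex V genes had a terminal peak and their median, 43, was the highest of the 7 groups. ATP5PF and ATP5PO, both of the peripheral stalk, had 60 and 57. The catalytic subunits ATP5F1A and ATP5F1B had 46 and 43. The 3 genes for the same c-ring subunit had 53 in ATP5MC3, 43 in ATP5MC2 and 32 in ATP5MC1, and ended 151, 149 and 102 bp past their stop codons. ATP5F1D (16) and ATP5MGL (18) were lowest. Reads of ATP5MGL and ATP5MG may not be separated either. The strongest terminal peak of the readthrough gene ATP5MF-PTCD1 (25) lay in BUD31 on the other strand.

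The 12 assembly factors all had a terminal peak, with a median of 26.5. NDUFAF8 was highest at 66, SDHAF2 had 40 and NDUFAF1 had 35, and NDUFAF5, SDHAF3 and SDHAF4 each had 16. Of 50 further genes that serve the chain (cytochrome c, copper and heme delivery, assembly of complexes I and III to V, and mitochondrial transcription), 46 had a terminal peak, with a median pileup of 29 and a range of 9 to 74. Among all protein-coding genes outside the members the share was 68.6% and the median 23. SURF1, which acts in complex IV assembly, was highest, and PET100 was lowest. Whether a gene on the other strand covered these summits was not recorded for the 50 genes. COX15, COX19, COA3 and UQCC3 had none, but each had a peak elsewhere in the gene. Cytochrome c itself, CYCS, had 65, and the regulators TFAM, NRF1 and PPARGC1A had 38, 21 and 13.

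The members ended close to the stop codon. The distance from the stop codon of the canonical transcript to the 3′ edge could be measured where the stop lies in the last exon, in 82 members and 11623 other genes. Its median was 156 bp in members and 856 bp in other genes. In members the 25th to 75th percentiles ran from 116 to 291 bp, and in other genes from 385 to 1911 bp. The strongest end was under 200 bp past the stop in 48 of the 82 members (58.5%), beside 10.3% of the other genes, and over 1000 bp past it in 3 members (3.66%), beside 45.2%. Those 3 were NDUFS1 at 9432 bp, NDUFA5 at 1105 bp and NDUFA4L2 at 1074 bp. Complex V was the most uniform, with 13 of 15 measured genes under 200 bp. The shortest distances were 52 bp in NDUFS8, 56 bp in NDUFB7 and 58 bp in NDUFB4. The 4 complex II genes ranged from 158 bp in SDHB to 825 bp in SDHD.

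Terminal peaks were sought around annotated ends, but within that window the 3′ edges lay close to the ends. The median edge was 5 bp past the nearest annotated end in members and 4 bp past it in other genes, and 65 of 95 members (68.4%) were within 25 bp, beside 67.0% of other genes. In 14 members (14.7%) the edge was over 100 bp past the end, beside 18.1% of other genes. Members' strongest peaks were wider than those of other genes, with a median of 203 bp beside 135 bp, so that a single peak may cover several cuts and its edge then marks the last of them. Runs of genomic A just downstream, where the oligo(dT) primer can bind without a poly(A) tail (at least 7 A in 10 bases), were found at 3 of 95 members (3.16%) and at 7.35% of other genes.

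The hexamers searched in the 40 bp before the edge, on the strand of the gene only, were AATAAA and ATTAAA and AGTAAA and TATAAA and AATATA and AATACA and CATAAA and GATAAA and AATGAA and ACTAAA and AAGAAA and AATAGA. They can overlap each other, and a window with several was credited to AATAAA first, then to ATTAAA, then to the others. AATAAA was found at 49 of 95 members (51.6%, Wilson interval 41.7% to 61.4%), beside 48.2% of other genes, and ATTAAA at 10 (10.5%), beside 12.2%. Any of the 12 was found at 72 members (75.8%, interval 66.3% to 83.3%), beside 74.6%. For scale, intronic peaks of other genes held AATAAA in 11.9% and any hexamer in 34.2% of windows of the same length. The hexamer AATAAA began a median of 27 bp before the edge in members and 26 bp in other genes. Where the strongest terminal peak was at most 150 bp wide, a limit set after seeing the data, its edge is sharper. There 25 of 34 members (73.5%) had AATAAA and 30 (88.2%) had any hexamer, beside 58.1% and 81.6% of other genes. With terminal peaks of at most 150 bp alone, 60.0% of 55 members had AATAAA and 80.0% any hexamer, beside 51.6% and 76.3%.

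**Figure D2:**
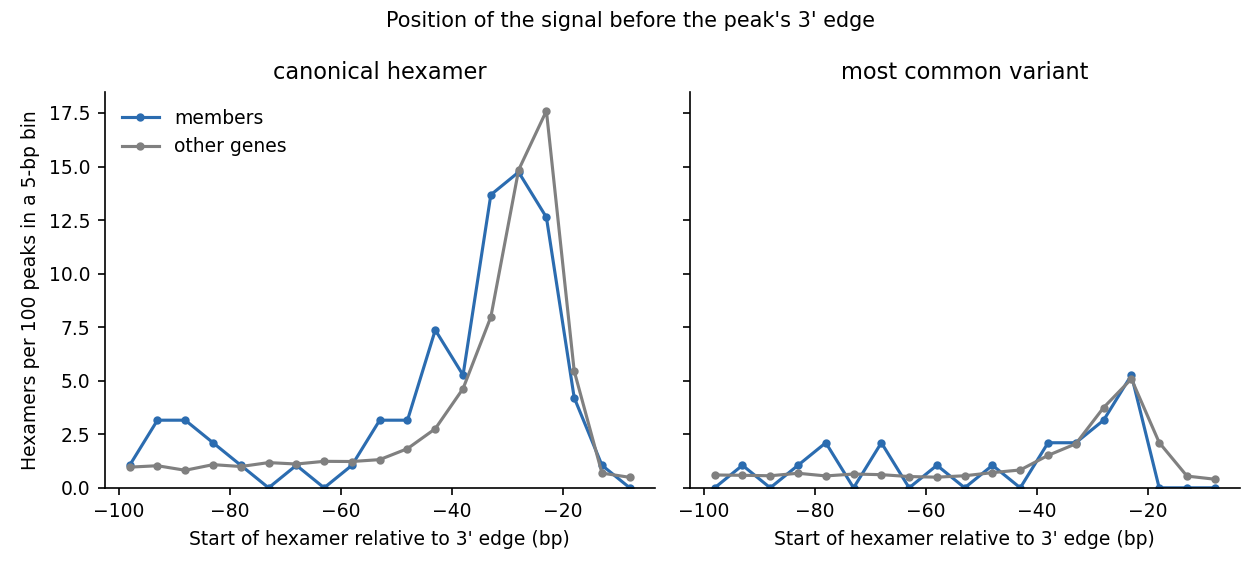
The horizontal axes give the start of the hexamer in bp relative to the 3′ edge of the strongest terminal peak (0), for AATAAA on the left and ATTAAA on the right, and the vertical axis gives hexamers per 100 peaks in bins of 5 bp. Members (95 peaks) and other genes (13666 peaks) both have most AATAAA starts between 21 and 35 bp upstream, and the points of the members further upstream are counts of 0 to 7.

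The 10 members with ATTAAA were 5 of complex V, 4 accessory subunits of complex I and SDHC. The 3 c-ring genes had different signals: ATP5MC1 and ATP5MC3 had ATTAAA and ATP5MC2 had AATAAA. Of the 23 members without any hexamer in 40 bp, 15 had one within 100 bp, among them ATP5PF, ATP5PO, COX5A, NDUFA2, NDUFA4L2, NDUFA5, NDUFA8, NDUFAF4, NDUFAF5, NDUFB8, NDUFB9, SDHAF1, SDHAF2 and UQCRQ. In 12 of the 15 it was AATAAA. The 8 with none in 100 bp either were COX5B, NDUFA3, NDUFAF3, NDUFAF8, NDUFB10, NDUFB11, SDHA and UQCR11. Of the 12 assembly factors, 6 lacked a hexamer in 40 bp, beside 17 of 83 subunit genes with a terminal peak.

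More than 1 terminal site was common in members and in other genes. Terminal peaks whose edges were over 100 bp apart gave 2 or more sites in 51 of 95 members (53.7%, interval 43.7% to 63.4%), beside 58.0% of other genes, and 3 or more in 20 members (21.1%), beside 31.1% of other genes. Sites with a run of genomic A downstream are counted here. The weaker terminal peaks of NDUFB1 and SDHB, for example, each had 10 A in the 10 bases downstream. How many such sites come from priming on genomic A was not tested. UQCRC2 had the most, 7, of which the 2 past its stop codon were the strongest, with pileups of 26 at 187 bp and 38 at 486 bp, each with AATAAA. Its other 5, with pileups of 7 to 14, lay in the window around the ends of shorter transcripts further upstream. Those with pileups of 8, 7 and 14 had edges 131, 214 and 463 bp past the nearest annotated end, with 9, 7 and 8 A downstream. NDUFA5, an accessory subunit, had 6, of which 5 followed its stop codon: a pileup of 24 at 259 bp, 19 at 737 bp, 46 at 1105 bp, 20 at 1351 bp and 17 at 1594 bp. The strongest was thus neither the first nor the last. ATP5F1A, COX6B2, NDUFA10, NDUFAF5, NDUFAF6 and NDUFV2 had 4 each. In NDUFA10 the peaks past the stop codon were highest at 578 bp, with 41, and at 3791 bp, with 27. In SDHC the farther end was the higher, with 49 at 775 bp and 24 at 84 bp. In ATP5MC3 it was the nearer, with 53 at 151 bp, 20 at 395 bp and 19 at 2028 bp.

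Of 85 members with a stop in the last exon and a peak past it, 3 had the highest such peak at no annotated end. The share in other genes was not computed. In UQCRFS1 a peak of pileup 61 (chr19:29207258-29207489) ended 290 bp past the stop codon and 1938 bp before the nearest annotated end, where the list had no peak, and ATTAAA began 38 bp before its edge. In SDHAF4, an assembly factor for the flavin subunit of complex II, a peak of 39 ended 83 bp past the stop codon, and the annotated end 762 bp further on had 16. In NDUFV3 a peak of 31 ended 2914 bp past the stop codon, beside 24 at the annotated end 84 bp past it. The last 30 bases of the peaks inside the annotated UTR and at the annotated end of SDHAF4 (chr6:70588778-70588807 and chr6:70589538-70589567) and NDUFV3 (chr21:42911906-42911935 and chr21:42909076-42909105) are given to show what differs before them. The internal SDHAF4 peak had no hexamer in 40 bp, its annotated end had AATAAA 19 bp before the edge, the internal NDUFV3 peak had GATAAA 11 bp before it, and its annotated end had AATAAA 27 bp before it.
SDHAF4, internal site: acttatttctgattattttctttctttata
SDHAF4, annotated end: atgcatacataAATAAAataatttttaaaa
NDUFV3, internal site: gatttgcatatatttttaaGATAAAgcatg
NDUFV3, annotated end: aaaAATAAAatccactcaagagtcacaagg

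**Figure D3:**
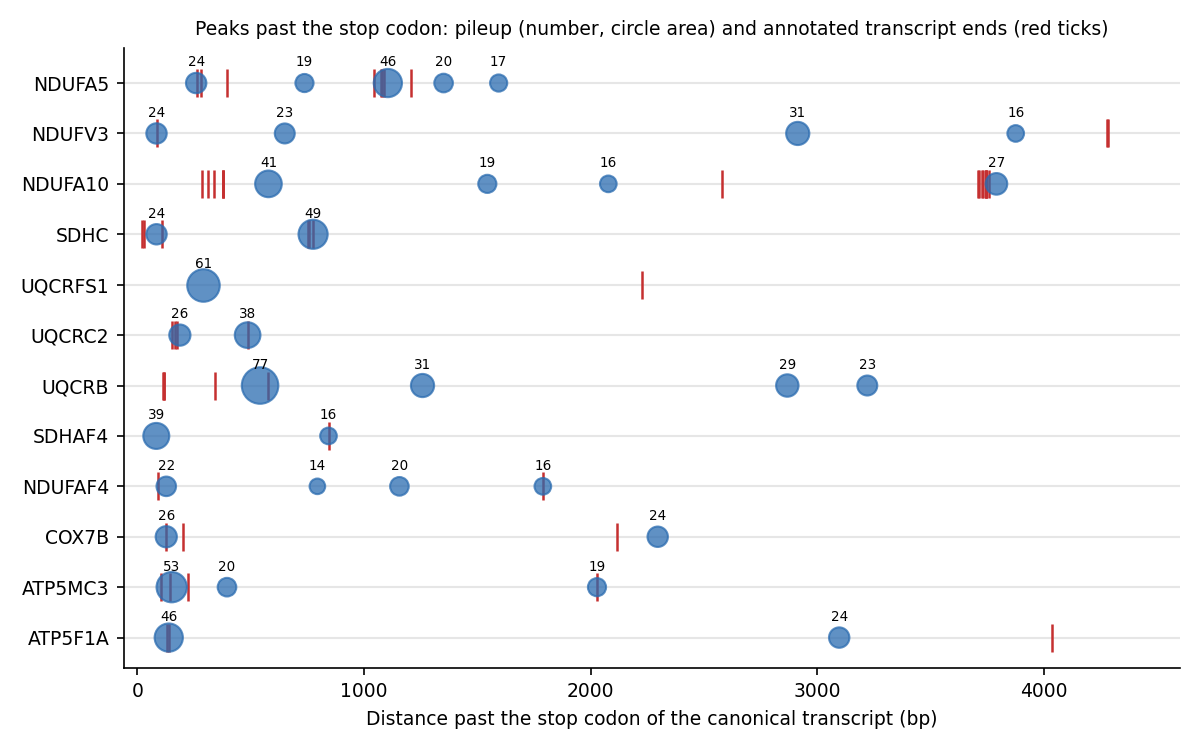
Circles are peaks past the stop codon of 12 members picked after their values were seen, the horizontal axis is the distance of the 3′ edge from the stop codon in bp, and the number and circle area give the pileup. Red ticks are annotated transcript ends. The peak of UQCRFS1 (61) and the first of SDHAF4 (39) stand away from any tick, and NDUFA5 has 5 peaks, the highest (46) in the middle.

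Peaks in noncoding exon sequence away from any annotated end with a pileup of 20 or more numbered 16. Besides the 3 just described they included 3 in UQCRB, at 1258, 2868 and 3221 bp past its stop codon with 31, 29 and 23, and 1 in ATP5F1A at 3097 bp with 24. In NDUFS1, whose canonical transcript has a very long 3′ UTR, the end 479 bp past the stop codon had 35 and the end at 9432 bp had 37. A further 17 peaks lay in coding exons, the highest at 30 in ATP5F1E.

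Intronic peaks made up 244 of the 489 peaks, or 49.9%, when each peak was counted once and terminal and exon positions took precedence. They were lower than the ends: counted for each gene, the 248 distinct intronic peaks had a median pileup of 9 and a range of 3 to 41, beside a median of 8 in other genes. At least 1 was found in 57 of the 95 members with a terminal peak (60.0%, interval 49.9% to 69.3%), beside 75.5% of other genes. With the canonical transcript alone the shares were 74.7% of 79 members and 79.4% of other genes. The members are shorter, with a median length of 12.6 kb beside 27.6 kb. By length class the shares differed from this pooled gap. Between 5 and 10 kb, 30.4% of 23 members and 30.4% of 1376 other genes had an intronic peak. Between 10 and 20 kb the shares were 83.3% of 24 members (interval 64.2% to 93.3%) and 62.9% of 2193 other genes, the members being the higher, and between 20 and 50 kb they were 91.7% of 24 and 90.0% of 3624. Complexes III and IV, with median lengths of 8.31 and 7.52 kb, had intronic peaks in 3 of 8 and 6 of 15 genes.

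**Figure D4:**
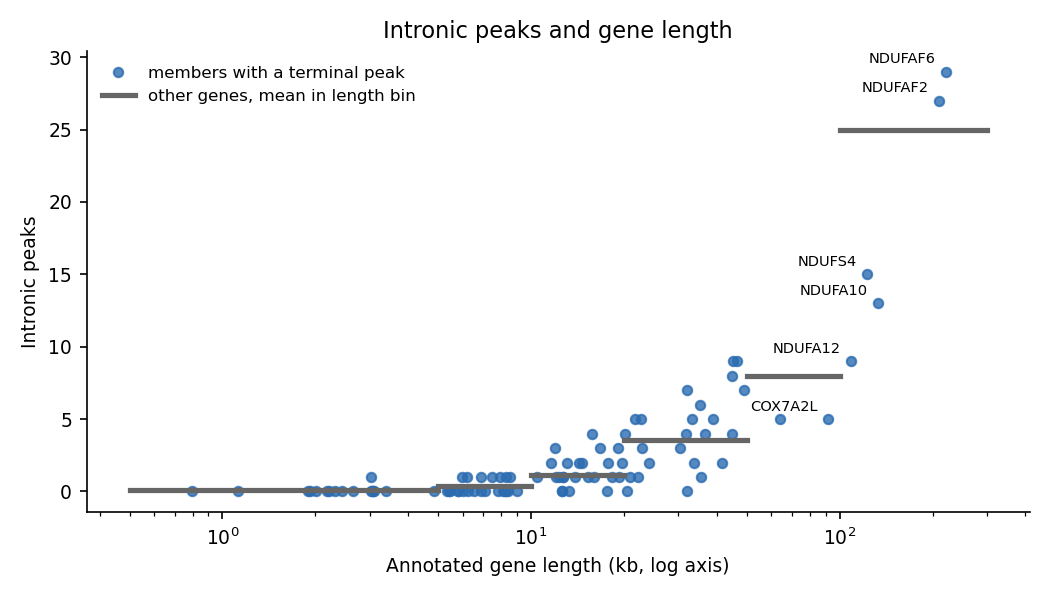
Each point is a member with a terminal peak, with its annotated length in kb on a log axis and its number of intronic peaks on the vertical axis. Grey bars are the mean number in other genes of the same length class (the last bar stands for all genes over 100 kb, with a mean of 24.98), and NDUFAF6 and NDUFAF2 are the members above it.

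Of 252 pairs of a member and an intronic peak, 93 were in 5 genes, the fifth of them tied with 2 more. NDUFAF6, 221 kb long, had 29, NDUFAF2, 209 kb, had 27, NDUFS4, 123 kb, had 15, NDUFA10, 133 kb, had 13, and ATP5MF-PTCD1, 46.5 kb, had 9, as did NDUFA9, 45.2 kb, and NDUFA12, 108 kb. The NDUFAF6 and NDUFAF2 proteins help to assemble complex I, and NDUFS4 is an accessory subunit of it. COX7B2, at 174 kb the third longest member, had none. The 5 shortest members, COX6A2, ATP5MGL, SDHAF1, COX7A1 and ATP5ME, had no intronic peak. Of these genes, COX7B2, COX6A2 and COX7A1 had no peak of any kind. In the readthrough genes the intronic count includes the ends of the member inside: the peaks of pileup 39 in ATP5MF-PTCD1 and of pileup 40 in NDUFC2-KCTD14 are those of ATP5MF and NDUFC2.

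At 166 of the 248 intronic peaks (66.9%, interval 60.9% to 72.5%) at least 7 of the 10 bases downstream were A, beside 67.6% of the intronic peaks of other genes, whereas at the members' ends it was 3 of 95. How many intronic peaks come from priming on genomic A was not tested. A gene on the other strand covered 24 of the 248. Of the 82 peaks without such a run, 51 had no other annotated gene on either strand at the summit. AATAAA was found before 31 of the 248 (12.5%), of which 17 had fewer than 7 A downstream. The 17 include end peaks of ATP5MF and NDUFC2, which count as intronic in the readthrough genes. The highest intronic peak in a gene that is not a readthrough, in ATP5PF with 41, had 7 A downstream and lay in JAM2 on the other strand. In NDUFAF2 a peak of 30 (chr5:61073032-61073214) had 2 A downstream, no hexamer in 40 bp and no other annotated gene at its summit.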

How the data were processed

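Poly(A) 3′-seq peaks of 10 IMR-32 libraries were analysed from 1 deposited list. The authors mapped the reads to GRCh38 with STAR 2.5.1b (up to 20 positions per read), downsampled and merged the libraries, and called peaks with MACS2 2.1.1. The paper also describes removing peaks that lacked a poly(A) motif and lay next to a genomic stretch of A. Whether the list used here had passed that step was not examined. The fold deposited by the authors is a ratio of pileup to local background, and the deposited p-value and q-value are given as −log10. Pileups were recovered as the whole number that gives back the deposited −log10 p (largest miss 0.00017). Start, end and summit come from the same list. No depth or value per library is given, so no groups or replicates could be compared.

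The members and gene lists were chosen with earlier results of these data known. Summits on chromosomes 1 to 22, X and Y were placed on all transcripts of GENCODE 44 (hg38, the build of the list); each peak was classed terminal, then exon, then intron for each gene. Bases were read from hg38; 4 members on a chromosome left out here are given without sequence. Named were the 3 highest members of each group, members without a terminal peak, paralog families, the 8 with most ends, the 5 with most intronic peaks (a tie for the fifth broken by name), the 5 longest and shortest, those without a hexamer, and the main catalytic subunits; others were picked after their values were seen, and 1 gene and 1 sequence are not reported here. Shares have 95% Wilson intervals. Alternatives changed the q-value, peak position, window, transcripts, strand overlap, members and motif window. The steps were tested on simulated data. Tools were samtools 1.23.1, matplotlib 3.10.9, pysam 0.24.0, pandas 2.3.3, scipy 1.17.1, numpy 2.4.6 and Python 3.11.15.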

Additional observations from a re-analysis of the deposited data

Results flagged for a closer look

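Signal outside the members was found in both places examined. The list held 8 peaks on the mitochondrial genome, where the partner subunits of complexes I, III, IV and V are encoded. Their summits lay in MT-ND1 (2 peaks), MT-ND2, MT-ND5 (3 peaks), MT-RNR1 and the noncoding control region, with backgrounds of 59.1 to 154. All but the MT-RNR1 peak had pileups of 189 to 200, near the 200 positions that can be counted, so heights were not compared with nuclear genes.

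Of 195 annotated pseudogenes named after 52 members, 6 carried peaks, 21 in all. The share over other pseudogenes was not computed. SDHAP1, SDHAP2 and SDHAP3, unprocessed copies of SDHA, had 4, 8 and 5 with pileups of up to 21, beside 31 at the end of SDHA. NDUFAF2P1, NDUFAF2P2 and NDUFA5P11 had 1, 2 and 1, with pileups of 5 to 15.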

How the results depend on the processing

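No paired analysis was possible because the deposited peaks come from the pooled reads of all libraries, and for the same reason no replicate could be left out. Of 40 recomputed values, 30 stayed within the interval of the value reported. With the canonical transcript alone, 79.0% of members had a terminal peak and 74.7% of those had an intronic one (79.4% in other genes). Without summits covered by a gene on the other strand, 88.0% had a terminal peak. In 100 bp before the edge 69.5% had AATAAA and 91.6% any hexamer, and in 40 bp before the summit 4.21% and 16.8%. The summit lay a median of 44 bp before the annotated end (-44.0 bp). With at least 6 A, 77.4% of intronic peaks counted as A-rich. Chosen after seeing the data, terminal peaks of at most 150 bp alone gave a median pileup of 23, beside 17 in other genes. Other genes moved the same way in each.

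The pool hides any difference between knockdowns, pileup levels off in abundant RNAs, and reads of near-identical copies and of genes on the other strand cannot be separated.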
